A study of Homo sapiens with 4 samples.

Results

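Interferon-stimulated genes are genes whose transcription rises when a cell receives an interferon. The 39 genes described here were taken by gene name from a list of known genes of this class, by a rule that uses no measured value, and all 39 were found among the 26485 gene names of the deposited tables. They were measured by mRNA sequencing in SW1736 and 8505C, established human cell lines derived from anaplastic thyroid cancer (ATC), a poorly differentiated tumor of the thyroid follicular cell. SW1736 wt and 8505C wt were paclitaxel-sensitive and received no drug. SW1736-PTX and 8505C-PTX were selected from these cells over 6 months with paclitaxel, a taxane that stabilizes microtubules, starting at 1 nM and ending at 1.5 µM, the dose in which the selected cells stayed. All cells grew in RPMI-1640 with serum, and no label names an interferon or a virus. Drug resistance and growth in the drug cannot be told apart in these groups, and whether the PTX cells are single clones is not given in the sources used here. Each condition had 1 library, so the spread between cultures of a condition is unknown. Every difference below compares 2 libraries and has no test, and no test over the lines, with PTX and wt cells as pairs, was run. In bulk RNA, a larger share of cells with a transcript and more transcript per cell cannot be told apart.

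Type I interferons signal through IFNAR1 and IFNAR2, type II interferon through IFNGR1 and IFNGR2, and type III interferons through IFNLR1 and IL10RB. The kinases JAK1, JAK2 and TYK2, bound to these receptors, phosphorylate STAT proteins. STAT2 takes part with IRF9 in the complex ISGF3 on the interferon-stimulated response element (ISRE), while the gamma-activated site (GAS) serves type II interferon. The products of the induced genes bind foreign RNA, block viral entry, conjugate ISG15 to other proteins, and include STAT2, IRF7 and IRF9 themselves, so that the pathway raises its own factors. A subset of these genes has been described as raised in tumor cells that survive DNA-damaging treatment or radiation.

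Depth, estimated from the ratio of coverage to FPKM (aligned reads scaled to gene length and library depth), lay between 43.5 and 57.9 M reads of 75 bases, and was greater in each PTX library than in its parent. Keratins KRT7, KRT8 and KRT18 were above 250 FPKM in all 4 libraries. KRT19 was at 266, 0.535, 0 and 0 FPKM in SW1736 wt, SW1736-PTX and the 8505C libraries, and the epithelial genes EPCAM and CDH1 were at most 0.0806 and 0.0277. In addition, TSHR and SLC5A5, which mark differentiated thyroid cells, were listed at 0 in all 4. The library labelled SW1736-PTX stood apart from its parent. Over 14692 genes its log2 values had a Pearson correlation of 0.767 with SW1736 wt, 0.873 with 8505C wt and 0.933 with 8505C-PTX. PAX8, a thyroid transcription factor, was at 38.2 FPKM in SW1736 wt and between 0.123 and 0.206 in the other 3 libraries, and NKX2-1, another one, was listed at 0 in SW1736 wt and lay between 30.5 and 39.0 in the others. The labels were kept, and most genes called in SW1736 are given against 8505C wt as well. The leukocyte markers PTPRC, CD3E, LYZ and ITGAM were at or below 0.0328 FPKM in every library, and CD14 ranged from 0.576 in 8505C wt to 4.50 in 8505C-PTX, so that the 6 leukocyte markers summed to 0.624 to 4.64 FPKM. The 5 fibroblast markers summed to 258 FPKM in SW1736 wt and to between 0.335 and 10.0 in the others, and the endothelial gene CDH5 fell from 55.9 FPKM in 8505C wt to 4.53 in 8505C-PTX, a log2 change of -3.59, while PECAM1 and VWF were at most 0.281 and 0.0860 in any library. The part of these differences in the results below was not tested.

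The following stretches lie upstream of the RefSeq start sites of 5 genes that were higher in both PTX libraries, and of ISG15 and IFIT1, which are classical members shown for comparison. They are written 5′ to 3′ on the strand of the gene, from RefSeq on GRCh38.p14. The coordinates deposited with the data start IFITM1 at 313991, IFITM3 at 320914 and IFIH1 at 162318708. For these genes that start falls inside the printed stretch. Capitals mark each match of the ISRE core, searched as GAAANNGAAA on both strands.
IFITM1, chr11:313980-314019, plus strand: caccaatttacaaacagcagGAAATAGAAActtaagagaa
IFITM3, chr11:320876-320932, minus strand: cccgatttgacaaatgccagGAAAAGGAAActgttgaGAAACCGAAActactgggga
IFIH1, chr2:162318686-162318863, minus strand: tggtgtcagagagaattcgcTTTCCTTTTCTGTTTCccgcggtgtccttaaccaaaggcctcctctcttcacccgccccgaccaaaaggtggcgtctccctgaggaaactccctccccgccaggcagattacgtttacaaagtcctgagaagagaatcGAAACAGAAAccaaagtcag
IFI6, chr1:27672266-27672368, minus strand: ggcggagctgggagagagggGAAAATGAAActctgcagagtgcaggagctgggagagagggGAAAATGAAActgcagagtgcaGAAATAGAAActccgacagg
IFI27, chr14:94110608-94110660, plus strand: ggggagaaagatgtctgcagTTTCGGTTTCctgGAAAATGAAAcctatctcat
ISG15, chr1:1013364-1013409, plus strand: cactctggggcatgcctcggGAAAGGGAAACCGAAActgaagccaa
IFIT1, chr10:89392487-89392539, plus strand: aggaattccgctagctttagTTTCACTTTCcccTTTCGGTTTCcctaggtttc

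The promoter window held the 250 bases before each start site and the 50 after it, and 31 of the 39 genes had a RefSeq window, DDX58 under its current name RIGI. MX2, IFIT2, IFITM2, OAS2, OASL, IRF7, GBP2 and USP18 had none. The ISRE core was present for 23 of the 31 genes (74.2%), against 4.38% of all 27305 genes with a window and 4.06% of the 10382 that were expressed in these libraries. IFITM3 held its 2 matches at 52 and 35 bases before the start, and IFI6 held 3. IFIH1 and IFI27 each had matches on both strands. The GAS motif, searched as TTCNNNGAA, was present for 10 of the 31 genes (32.3%), against 9.38% of all genes with a window, and in 5 genes it overlapped an ISRE match. The 8 genes with a window but no ISRE core were OAS1, DDX58, HERC6, STAT2, IRF1, IRF9, IFI35 and XAF1, so the genes higher in PTX cells included genes of both kinds. Of the 21 genes with the core that could be compared, 10 were called up-regulated in SW1736-PTX and 8 in 8505C-PTX by the limits given below, where 15.7% and 15.0% of all genes were, and their median log2 fold change was 1.17 and 0.61. Of the 8 without it, 4 were called in each line, with a median of 1.58 and 1.42. A match describes these letters in this window and does not show binding.

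**Figure D1:**
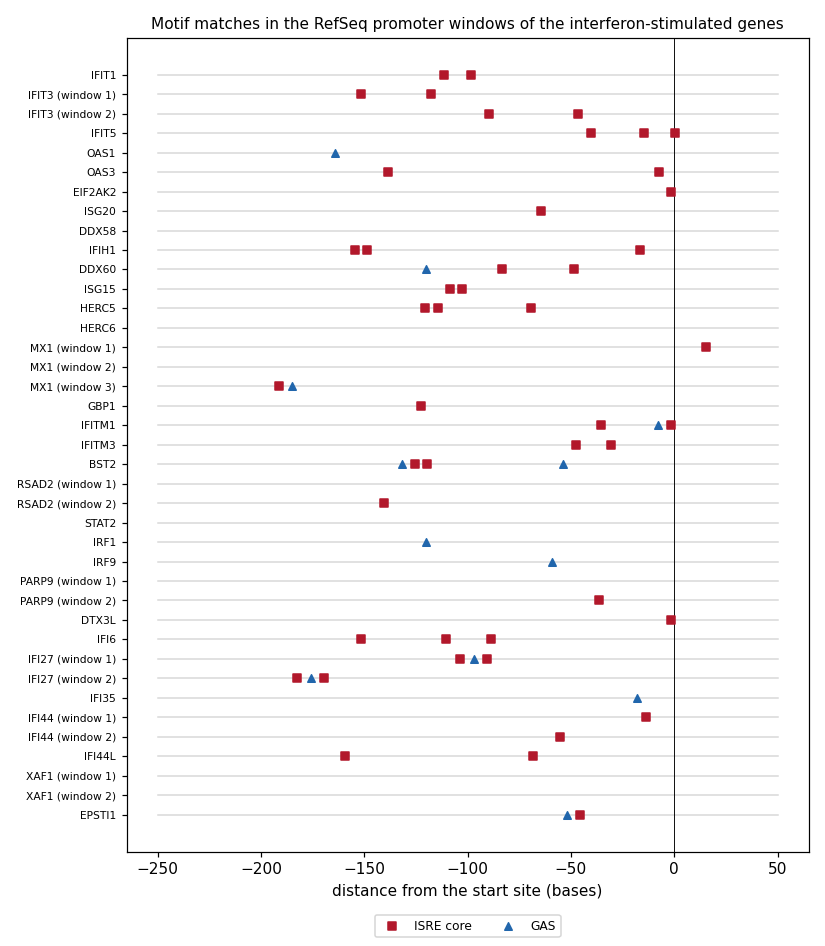
Matches of the ISRE core (squares) and of GAS (triangles) in the promoter windows of the listed genes, against the distance from the RefSeq start site in bases, with 1 grey line per window and several windows for some genes. Most squares lie within the 160 bases before the start, and OAS1, IRF1, IRF9 and IFI35 hold a triangle and no square.

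The change of a gene is the log2 ratio of its FPKM in PTX and wt cells with 0.1 added to each, which understates the change of low genes. In a row of 4 FPKM values, the order is SW1736 wt, SW1736-PTX, 8505C wt, 8505C-PTX, and a row of 3 changes gives SW1736, 8505C, and then SW1736-PTX against 8505C wt. A gene was compared when 1 or both libraries of the pair exceeded 0.5 FPKM, and it was called up-regulated above 1.5 and down-regulated below -1.5. In SW1736-PTX against SW1736 wt, 36 of the 39 genes could be compared, and 15 of them (41.7%) were up-regulated where 15.7% of all genes compared were. The 3 down-regulated genes, OAS2, OASL and BST2, made 8.33% of those compared, against 10.2% of all genes. The median log2 fold change of the list was 1.15, with 30 of 36 genes above 0, while the median over all genes was 0.01. In 8505C-PTX against 8505C wt, 17 of 35 genes (48.6%) were up-regulated, against 15.0% of all genes compared. None of the listed genes was down-regulated there, against 5.89% of all genes, and the list median was 1.33 with 28 of 35 genes above 0. The median of all genes was 0.11 in this line, and with it subtracted 16 of the 17 calls were left, without IFIT2.

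The 10 genes up-regulated in both lines were IFITM1, IFITM2, IFITM3, IFI6, IFI27, IFI35, XAF1, IFIH1, DDX60 and MX1. They were 10 of the 35 genes compared in both lines, where 7.37% of all genes compared in both were up-regulated in both. Over all genes, 2236 were up-regulated in SW1736, 2068 in 8505C and 981 in both lines. OAS1, ISG20, HERC6, PARP9 and EPSTI1 passed the limit in SW1736 alone, and IFIT1, IFIT2, OAS2, GBP2, STAT2, IRF7 and IRF9 passed it in 8505C alone. Another 15 genes were called in neither line. Among these 15, MX2, RSAD2 and IFI44L stayed below 0.5 FPKM in all 4 libraries and so could not be compared. The differences between the lines in these calls were not tested.

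**Figure D2:**
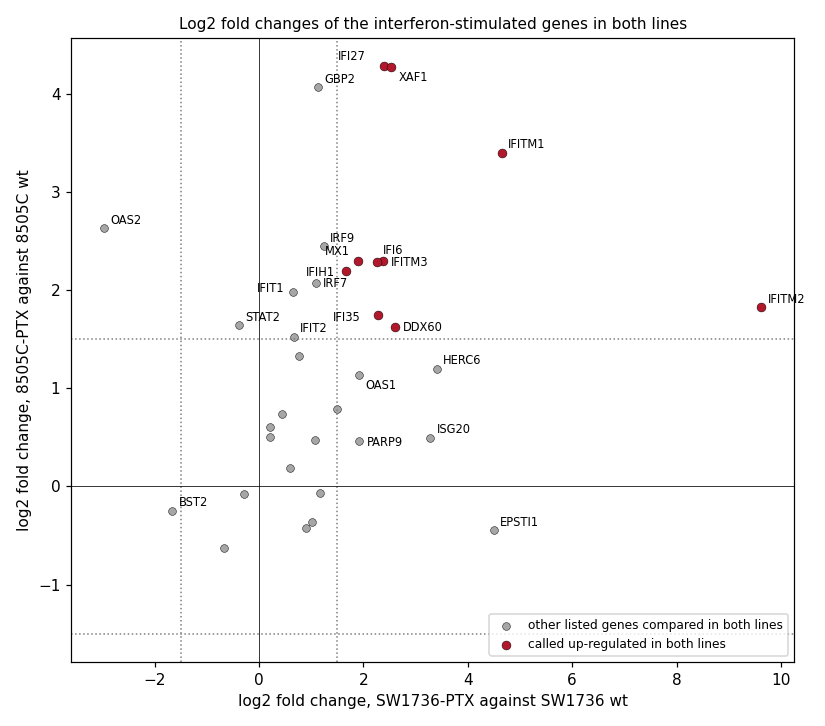
Log2 fold change of the 35 genes compared in both lines, SW1736 on the x axis and 8505C on the y axis, with dotted lines at the limits of 1.5. The 10 red points were called up-regulated in both lines, IFITM2 lies at 9.63 in SW1736, and OAS2 is the only gene beyond the limits in opposite directions.

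Against 8505C wt, SW1736-PTX had 15 of 35 genes up-regulated, where 15.1% of all genes compared were, and none down-regulated, where 5.23% were. The median of the list was 1.28. This comparison shares the 8505C wt library with the 8505C comparison, so the calls of both are not independent. Of the 15 calls made against SW1736 wt, 9 were kept and 6 were lost, and 6 other genes were called. The lost calls were those of IFITM2, IFITM3, ISG20, HERC6, PARP9 and EPSTI1, and the calls gained were those of IFIT1, IFIT3, OAS2, GBP2, IRF9 and IFI44. None of the 3 down-regulated genes was kept. How many calls over all genes were kept, lost or gained with this change of reference was not counted. With 8505C wt as the reference for both PTX libraries, 12 of 35 genes were up-regulated in both, against 10.1% of all genes. IFI6, IFI27, IFI35, XAF1, IFIH1, DDX60, MX1 and IFITM1 passed with either reference.

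**Figure D3:**
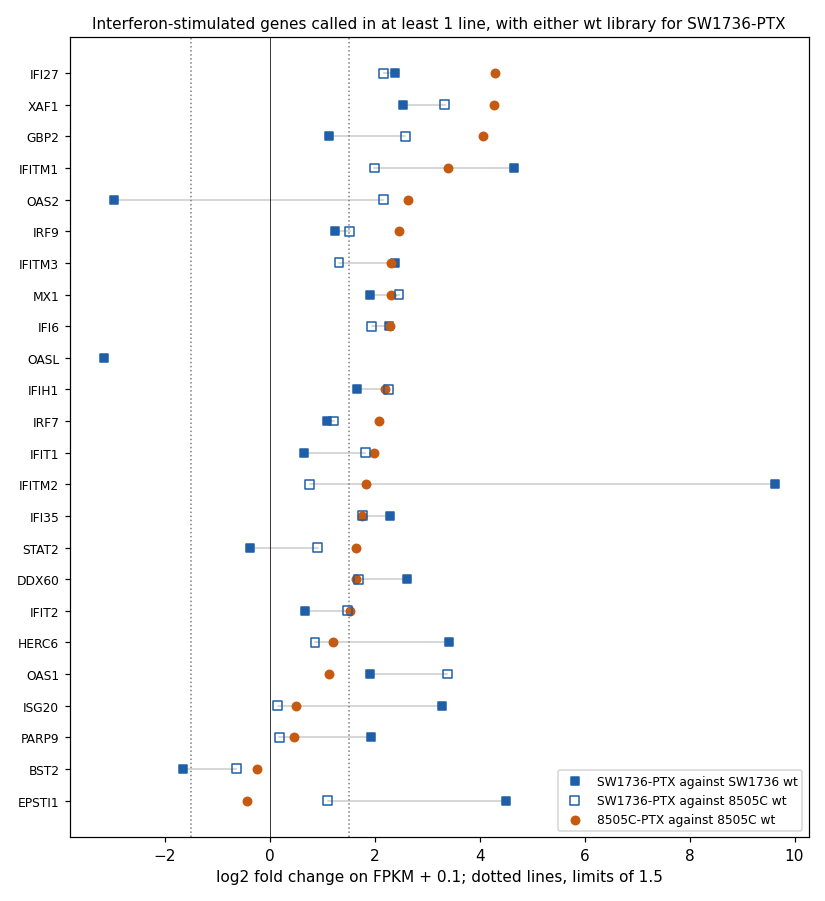
Log2 fold changes of the genes called in at least 1 line, for SW1736-PTX against SW1736 wt (filled squares), SW1736-PTX against 8505C wt (open squares) and 8505C-PTX against 8505C wt (circles), with dotted lines at the limits of 1.5. OASL is not drawn against 8505C wt, where it was listed at 0. The squares are far apart for IFITM2 and OAS2 and close together for IFI27, IFI6 and IRF7.

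The IFITM genes encode small membrane proteins that block fusion of enveloped viruses. They were the most abundant of the list in SW1736-PTX, 8505C wt and 8505C-PTX. In SW1736 wt, IFITM3 was followed by BST2 and ISG15 instead. They lie together on chromosome 11 (hg38), IFITM2 at chr11:308107-309410, IFITM1 at chr11:313991-315272 and IFITM3 at chr11:319673-320914. IFITM3 was at 213 FPKM in SW1736 wt against 1106 in its PTX cells, and at 445 in 8505C wt against 2189 in its PTX cells, and it was the highest of the 39 genes in each library. Both PTX libraries exceeded both wt libraries, by 2.37 on the log2 scale for SW1736 and 2.30 for 8505C. Against 8505C wt the value of SW1736-PTX was 1.32, within the limit.

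IFITM1 was at 11.3 FPKM in SW1736 wt against 286 in its PTX cells, and at 72.0 in 8505C wt against 761 in its PTX cells. Again both PTX libraries lay above both wt libraries, by 4.65 and 3.40 on the log2 scale within each line and by 1.99 for SW1736-PTX against 8505C wt. IFITM2 was at 0.714 FPKM in SW1736 wt against 643 in its PTX cells, and at 380.5 in 8505C wt against 1352 in its PTX cells. SW1736 wt stood alone at a low level, which rested on an estimated 35 reads, so that the log2 fold change of 9.63 in SW1736 fell to 0.76 against 8505C wt. In 8505C it was 1.83. The 3 genes are close paralogs: of the 75-base words of the canonical transcripts, 11.3% for IFITM1, 5.04% for IFITM2 and 12.5% for IFITM3 occur in another gene, so a small part of their reads could have been assigned to a neighbour.

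The other membrane-associated genes moved differently. BST2, encoding tetherin, which holds budding virions at the cell surface, was at 37.7 FPKM in SW1736 wt against 11.9 in its PTX cells, and at 18.5 in 8505C wt against 15.6 in its PTX cells. SW1736 wt was the high library and the other 3 were close to each other, so the down-regulation of -1.66 in SW1736 became -0.64 against 8505C wt, and the value in 8505C was -0.25. RSAD2, encoding viperin, was at or below 0.115 FPKM in all 4 libraries and was listed at 0 in 8505C wt.

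**Figure D4:**
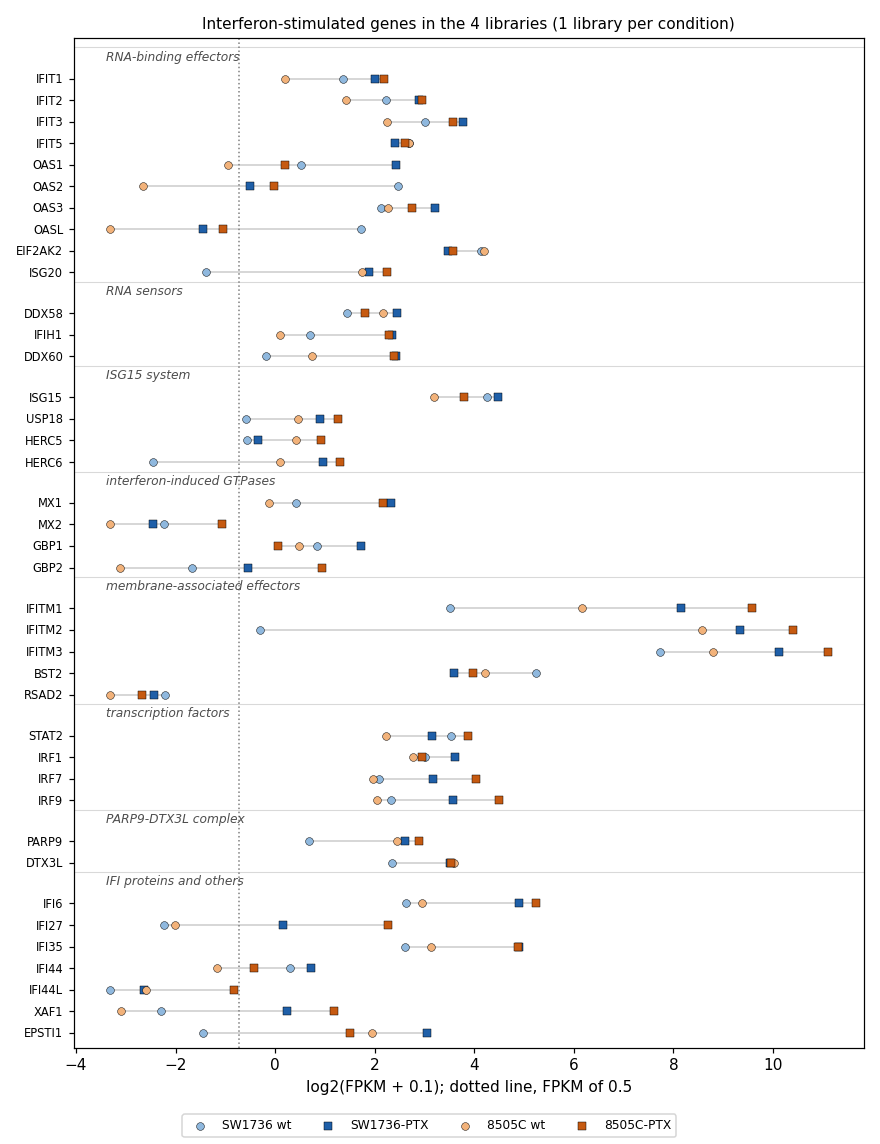
Level of the 39 genes in each library as log2(FPKM + 0.1), grouped by role, with circles for wt and squares for PTX, blue for SW1736 and orange for 8505C. A gene listed at 0 sits at the left edge, and the dotted line marks 0.5 FPKM. The squares lie to the right of the circles for IFITM1, IFITM3, IFI6, IFI35, IFIH1, DDX60 and MX1, and BST2 and OAS2 have a blue circle farthest right.

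The IFI proteins and XAF1 held 4 of the 7 other genes up-regulated in both lines. IFI6, a mitochondrial and endoplasmic reticulum protein with anti-apoptotic activity, was at 6.08 FPKM in SW1736 wt against 29.6 in its PTX cells, and at 7.61 in 8505C wt against 37.6 in its PTX cells. Its log2 fold changes were 2.26 and 2.29, and 1.94 against 8505C wt, and 19.2% of its 75-base words also occur in the noncoding gene LINC02574. IFI35, which partners with NMI, was at 5.98, 29.5, 8.66 and 29.3 FPKM. The wt libraries lay within 1.5-fold of each other and so did the PTX libraries, and the log2 fold changes were 2.28, 1.75 and 1.76.

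IFI27 and XAF1 were low in wt cells. IFI27, an inner-membrane protein often used as a blood marker of interferon exposure, was at 0.114 FPKM in SW1736 wt against 1.02 in its PTX cells, and at 0.148 in 8505C wt against 4.74 in its PTX cells. The wt values rested on an estimated 4 and 5 reads. The ratio of PTX to wt was 8.95 in SW1736, with a 95% exact counting interval of 3.30 to 34.8, and 32.1 in 8505C, with an interval of 12.6 to 93.2. XAF1, an antagonist of the apoptosis inhibitor XIAP, was at 0.103, 1.08, 0.0167 and 2.16 FPKM. Its 8505C wt value lay below 0.0202 FPKM, the level of 3 reads taken here as the floor of detection. The ratio of XAF1 was 10.5 in SW1736 (6.46 to 18.5) and 129 in 8505C, where an estimated 2 wt reads left an interval of 44.1 to 1330.1. All such intervals use reads estimated from FPKM, transcript length and depth, and cover counting error only. On the log2 scale with the pseudocount, IFI27 changed by 2.39, 4.29 and 2.17 and XAF1 by 2.54, 4.27 and 3.34.

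EPSTI1, a gene first described in breast epithelium next to stroma, was at 0.268 FPKM in SW1736 wt against 8.19 in its PTX cells, and at 3.77 in 8505C wt against 2.74 in its PTX cells. SW1736 wt was the only low library. The log2 fold change was therefore 4.49 in SW1736, 1.10 against 8505C wt and -0.45 in 8505C. IFI44 lay between 0.343 and 1.55 FPKM, with log2 fold changes of 0.43 and 0.74 that passed no limit, and its neighbour IFI44L was listed at 0 in SW1736 wt and was at most 0.463, in 8505C-PTX.

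Among the cytosolic RNA sensors, IFIH1 and DDX60 were up-regulated in both lines and DDX58 in neither. IFIH1, encoding MDA5, which binds long viral RNA duplexes, was at 1.51 FPKM in SW1736 wt against 5.00 in its PTX cells, and at 0.963 in 8505C wt against 4.78 in its PTX cells. The log2 fold changes were 1.66 in SW1736, 2.20 in 8505C and 2.26 against 8505C wt, and with a pseudocount of 1 the first was 1.26. DDX60, a helicase that assists these sensors, was at 0.783, 5.27, 1.58 and 5.09 FPKM, and changed by 2.61, 1.63 and 1.68, the second 1.24 with a pseudocount of 1. For both genes the PTX libraries differed from each other by less than 0.1 on the log2 scale. DDX58, encoding RIG-I, was at 2.60, 5.34, 4.36 and 3.38 FPKM, a change of 1.01 in SW1736 and of -0.36 in 8505C.

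The GTPases were led by MX1, whose product assembles on viral nucleocapsids. MX1 was at 1.24 FPKM in SW1736 wt against 4.91 in its PTX cells, and at 0.811 in 8505C wt against 4.38 in its PTX cells. Both PTX libraries were above both wt libraries, by 1.90 and 2.30 within the lines and 2.46 against 8505C wt. GBP2, a guanylate-binding protein, was at 0.214, 0.587, 0.0148 and 1.83 FPKM. Its 8505C wt value rested on an estimated 3 reads after rounding. That value lay below 0.0169 FPKM, the level of 3 reads taken here as the floor of detection. The ratio in 8505C was 123, with a counting interval of 36.9 to 529. The log2 fold change of GBP2 was 1.13 in SW1736, 4.07 in 8505C and 2.58 against 8505C wt. Its neighbour GBP1 moved otherwise, at 1.68, 3.21, 1.30 and 0.940 FPKM, with values of 0.89 and -0.43, neither beyond the limit. MX2 was at most 0.375 FPKM, in 8505C-PTX, and was listed at 0 in 8505C wt.

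Of the 10 genes in the group of RNA-binding effectors, 2 were up-regulated and 2 down-regulated in SW1736. Of all genes compared there, 15.7% and 10.2% were. In 8505C, 3 of 9 were up-regulated, against 15.0% of all genes compared. The IFIT genes encode proteins that bind foreign RNA ends, and lie together within 113 kb of chromosome 10. IFIT1 was at 2.46 FPKM in SW1736 wt against 3.94 in its PTX cells, and at 1.05 in 8505C wt against 4.43 in its PTX cells, with log2 fold changes of 0.66 in SW1736, 1.99 in 8505C and 1.82 against 8505C wt. IFIT2 was at 4.57, 7.33, 2.57 and 7.59 FPKM and changed by 0.67, 1.53 and 1.48. For IFIT1, IFIT2 and IFIT3 the order of the libraries was the same on the wt side, with 8505C wt the lowest and SW1736 wt between it and the PTX libraries. IFIT3 reached 13.5 FPKM in SW1736-PTX from 7.92 in wt. It changed by 0.76 in SW1736 and 1.33 in 8505C, within the limit, and by 1.52 against 8505C wt, just above it. IFIT5 stayed between 5.23 and 6.38 FPKM in all 4 libraries.

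The OAS genes encode sensors that make 2′-5′ oligoadenylates and so switch on RNase L. OAS1 was at 1.34 FPKM in SW1736 wt against 5.31 in its PTX cells, and at 0.421 in 8505C wt against 1.04 in its PTX cells, with log2 fold changes of 1.91 in SW1736, 1.13 in 8505C and 3.38 against 8505C wt. OAS2, its neighbour on chromosome 12, was at 5.44, 0.608, 0.0587 and 0.884 FPKM. SW1736 wt was far above the other 3 libraries, and the log2 fold changes were -2.97 in SW1736, 2.63 in 8505C and 2.16 against 8505C wt. OAS3, which lies between them, was at 4.27, 9.14, 4.72 and 6.62 FPKM, without a call. OASL, a relative without synthetase activity, was at 3.22 FPKM in SW1736 wt and lower elsewhere, at 0.268 in its PTX cells and 0.382 in 8505C-PTX, and was listed at 0 in 8505C wt. Its log2 fold change in SW1736 was -3.17, and in the 8505C pair it did not reach the FPKM limit.

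EIF2AK2, encoding the kinase PKR that halts translation on sensing RNA duplexes, was the highest of this group in both wt libraries, and IFIT3 in both PTX libraries. It was at 17.5 FPKM in SW1736 wt against 10.9 in its PTX cells, and at 18.2 in 8505C wt against 11.7 in its PTX cells. Both PTX libraries were lower than both wt libraries, with log2 fold changes of -0.68 and -0.63 that did not pass the limit. ISG20, an exonuclease, was at 0.281, 3.61, 3.25 and 4.63 FPKM. SW1736 wt alone was low, and the change of 3.28 in SW1736 was 0.15 against 8505C wt and 0.50 in 8505C.

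ISG15 is a ubiquitin-like protein that HERC5, and in mice Herc6, attaches to other proteins and that USP18 removes. ISG15 was at 19.1 FPKM in SW1736 wt against 22.1 in its PTX cells, and at 9.04 in 8505C wt against 13.8 in its PTX cells, with changes of 0.21 and 0.61. The SW1736 libraries were both above the 8505C libraries, so for ISG15 the lines differed more than the conditions. USP18, which also restrains signalling from IFNAR2, was at 0.569, 1.77, 1.28 and 2.29 FPKM. Its value of 1.49 in SW1736 fell just short of the limit, it was 0.79 in 8505C, and 21.0% of its 75-base words also occur in USP41. HERC5 lay between 0.577 and 1.78 FPKM without a call. HERC6 was at 0.0834 FPKM in SW1736 wt against 1.85 in its PTX cells, and at 0.974 in 8505C wt against 2.37 in its PTX cells. SW1736 wt, with an estimated 15 reads, was the low library again, and the change of 3.41 in SW1736 was 0.86 against 8505C wt and 1.20 in 8505C.

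The transcription factors of the pathway were up-regulated in 8505C for 3 of 4 genes and in SW1736 for none. Of all genes compared, 15.0% were up-regulated in 8505C and 15.7% in SW1736. IRF9, the DNA-binding subunit of ISGF3, was at 4.89 FPKM in SW1736 wt against 11.8 in its PTX cells, and at 4.02 in 8505C wt against 22.5 in its PTX cells, with log2 fold changes of 1.25 and 2.45. IRF7, which drives type I interferon genes, was at 4.17, 8.94, 3.79 and 16.3 FPKM and changed by 1.08 and 2.08. For both genes the PTX libraries were above the wt libraries and 8505C-PTX was the highest. STAT2 was at 11.4, 8.74, 4.59 and 14.5 FPKM, with a change of 1.64 in 8505C and of -0.38 in SW1736. Against 8505C wt, the values of SW1736-PTX were 1.52 for IRF9, 1.22 for IRF7 and 0.91 for STAT2. IRF1, which does not need ISGF3, lay between 6.70 and 12.1 FPKM and was not called.

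PARP9 and DTX3L encode partners that act together as an ADP-ribosyl and ubiquitin transferase, and their genes start 0.338 kb apart on opposite strands of chromosome 3 with overlapping ends, so that reads there cannot be split without strand. PARP9 was at 1.51 FPKM in SW1736 wt against 6.01 in its PTX cells, and at 5.32 in 8505C wt against 7.35 in its PTX cells. DTX3L was at 4.99, 11.4, 12.0 and 11.4 FPKM. For both genes SW1736 wt was low and the other 3 libraries were alike. PARP9 changed by 1.92, 0.46 and 0.17, with a call in SW1736, and DTX3L by 1.17, -0.07 and -0.07, without one.

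Position was not used to choose the list, and 20 of the 39 genes start within 100 kb of another listed gene, in 8 clusters. Members of a cluster did not always share a direction. In the OAS cluster, OAS1 rose and OAS2 fell in SW1736-PTX against its own wt, and in the GBP cluster GBP2 rose in 8505C while GBP1 was at -0.43. In the IFITM cluster all 3 genes rose in both lines against their own wt, and IFITM1 was the only one of them above the limit for SW1736-PTX against 8505C wt.

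Summed over the list, TPM (per-length abundance with the same total for each library) was 897 for the SW1736 wt library and 5048 for its PTX cells, and 2368 for 8505C wt and 10181 for its PTX cells. The ratio of PTX to wt was 5.63 in SW1736 and 4.30 in 8505C, and 2.13 for SW1736-PTX against 8505C wt. The 3 IFITM genes held most of each sum. Without them the sums were 384, 557, 316 and 599.6 TPM, and the ratios fell to 1.45, 1.89 and 1.76. The median level of the 39 genes was 2.46, 5.31, 3.25 and 4.78 FPKM, and the number above 10 FPKM was 6, 12, 6 and 13.

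The lines were also compared with each other, before and after selection. Between SW1736 wt and 8505C wt, 8 of 33 genes were called, or 24.2%, against 17.6% of all genes compared. OAS2 and OASL were higher in SW1736 wt, ISG20, HERC6, IFITM1, IFITM2, PARP9 and EPSTI1 were lower, and the list median was 0.01. Between SW1736-PTX and 8505C-PTX, 4 of 35 genes (11.4%) were called, against 7.79% of all genes. OAS1, GBP1 and EPSTI1 were higher in SW1736-PTX, by 2.24, 1.67 and 1.54, and IFI27 was lower by -2.11, with a list median of -0.19.

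No interferon gene was called in either line, but none could be compared in SW1736 and only 1 in 8505C. Of 22 interferon genes, only IFNE, a type I interferon of epithelia, exceeded 0.5 FPKM in any library, at 0.448, 0.341, 0.633 and 0.284. IFNB1, IFNG, IFNL1, IFNL2 and IFNL3 were listed at 0 in all 4 libraries. At these depths, 3 reads on IFNB1 correspond to an FPKM of 0.0618 to 0.0821, so lower levels would not be detectable, and a listed 0 can also be a failed estimate.

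Of the 6 receptor genes, 1 was up-regulated and 2 were down-regulated in SW1736, and 1 was up-regulated in 8505C. The share up-regulated, 16.7%, was close to that of all genes in each line, 15.7% and 15.0%. The share down-regulated in SW1736 was 33.3%, against 10.2% of all genes. IFNLR1, the specific chain of the type III receptor, was at 0.0520 FPKM in SW1736 wt against 0.755 in its PTX cells, and at 0.937 in 8505C-PTX, and was listed at 0 in 8505C wt. It was called in both lines, with a change of 2.49 in SW1736, and no fold is given against 8505C wt. IFNAR1 was at 10.6 FPKM in SW1736 wt against 3.61 in its PTX cells, and at 10.7 in 8505C wt against 8.91 in its PTX cells. It changed by -1.53 in SW1736, -0.26 in 8505C and -1.54 against 8505C wt. IFNGR2 was at 31.8, 7.90, 20.3 and 20.9 FPKM, and changed by -2.00, 0.04 and -1.35. SW1736-PTX was the lowest library for both. IFNAR2 changed by -0.96 and 0.53, IFNGR1 by 0.97 and 0.65, and IL10RB by 0.27 and 0.75, all within the limit.

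Among JAK1, JAK2, TYK2 and STAT3, JAK2 was the only gene called. It was at 3.79 FPKM in SW1736 wt against 1.29 in its PTX cells, and at 3.70 in 8505C wt against 1.11 in its PTX cells, lower in both PTX libraries by -1.49 in SW1736, just within the limit, and by -1.65 in 8505C. STAT3 was at 16.8, 33.6, 26.9 and 61.7 FPKM, with changes of 1.00 and 1.19. JAK1 lay between 27.3 and 36.8 FPKM and TYK2 between 12.6 and 32.6 without a call. None of the 6 inhibitor genes compared, among them SOCS1, SOCS3 and PIAS1, was called in either line. Of all genes compared, 25.9% were called in either direction in SW1736 and 20.9% in 8505C.

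**Figure D5:**
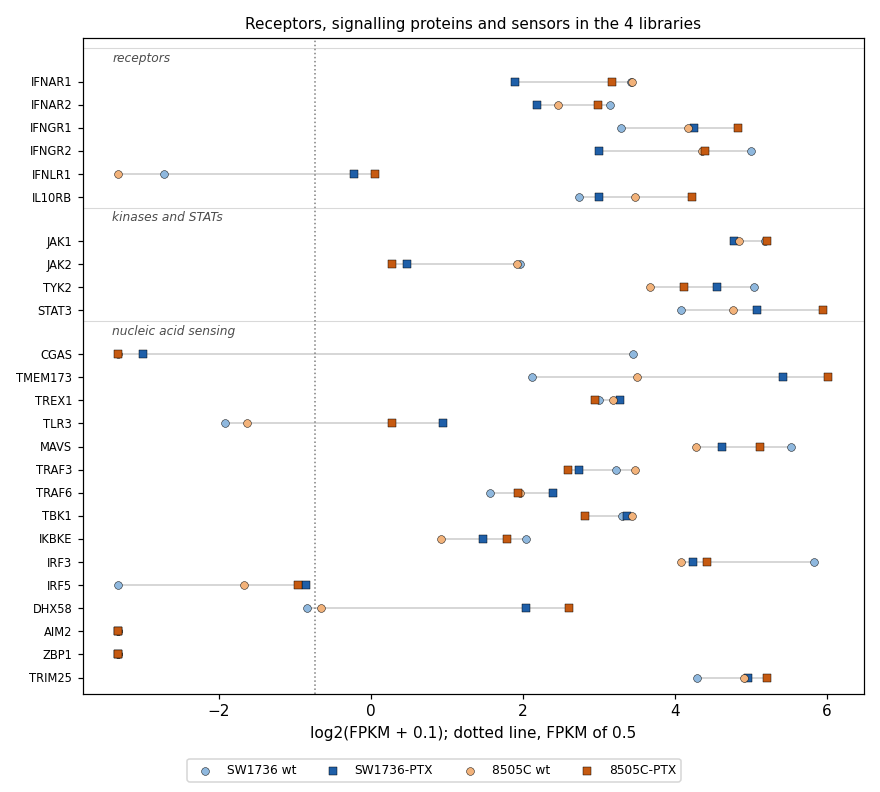
Level of receptors, kinases, STAT3 and nucleic acid sensing genes in each library as log2(FPKM + 0.1), with the symbols of the plot of the 39 genes. TMEM173, TLR3, DHX58 and IFNLR1 have both squares to the right of both circles, JAK2 has both to the left, and CGAS has a single point beyond the dotted line.

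Of 15 nucleic acid sensing genes outside the list, 12 could be compared in SW1736, with 3 up-regulated and 2 down-regulated, and 11 in 8505C, with 3 up-regulated and none down-regulated. The same 3 were up-regulated in both lines, where 7.37% of all genes were. Among all genes compared, 15.7% rose past the limit for SW1736 and 15.0% for 8505C, while 10.2% and 5.89% fell past it. TMEM173, encoding STING, which relays the detection of cytosolic DNA, was at 4.22 FPKM in SW1736 wt against 42.6 in its PTX cells, and at 11.3 in 8505C wt against 64.4 in its PTX cells, and changed by 3.30 and 2.51. DHX58, encoding LGP2, a partner of MDA5, was at 0.458, 3.9998, 0.535 and 5.97 FPKM and changed by 2.88 and 3.26. TLR3, the endosomal sensor of RNA duplexes, was at 0.164, 1.83, 0.223 and 1.12 FPKM and changed by 2.87 and 1.91. Against 8505C wt the values of SW1736-PTX were 1.91, 2.69 and 2.58 for the 3 genes. CGAS, the DNA sensor upstream of STING, was at 10.8 FPKM in SW1736 wt against 0.0256 in its PTX cells, and was listed at 0 in both 8505C libraries. IRF3 was at 56.8, 18.8, 16.8 and 21.3 FPKM and changed by -1.59, 0.34 and 0.16. CGAS and IRF3 were singled out after their values were seen, and in both SW1736 wt stood apart from the other 3 libraries.

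A second list held 50 further interferon-stimulated genes. In SW1736, 15 of 45 compared (33.3%, against 15.7% of all genes) were up-regulated and 2 (4.44%, against 10.2%) down-regulated, with a median of 0.98. In 8505C, 12 of 44 (27.3%, against 15.0%) were up-regulated and 1 (2.27%, against 5.89%) down-regulated, with a median of 0.73. Against 8505C wt, SW1736-PTX had 15 of 44 (34.1%, against 15.1%) up-regulated and 0 down-regulated, against 5.23% of all genes. Of the 44 compared in both lines, 10 were up-regulated in both, against 7.37% of all genes, and these were SLFN5, UBA7, LGALS3BP, RTP4, BATF2, PARP10, APOL1, IFI30, SAMD9L and UBE2L6. UBA7 and UBE2L6 are the activating and conjugating enzymes of ISG15. UBA7 was at 1.94 FPKM in SW1736 wt against 15.3 in its PTX cells, and at 2.31 in 8505C wt against 18.1 in its PTX cells, and UBE2L6 was at 30.2, 87.1, 18.8 and 76.7. Their changes were 2.92, 2.91 and 2.68 for UBA7 and 1.52, 2.03 and 2.21 for UBE2L6, while ISG15 itself was not called. SLFN5, of the Schlafen family, was at 2.09, 19.5, 5.74 and 43.8 FPKM. LGALS3BP, a secreted glycoprotein, was at 44.5, 393, 142 and 643 FPKM. Both had all PTX values above all wt values, with changes of 3.16, 2.91 and 1.74 for SLFN5 and of 3.14, 2.18 and 1.47 for LGALS3BP. RTP4 was listed at 0 in 8505C wt and reached 0.553 FPKM in 8505C-PTX.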

How the data were processed

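The data were 4 libraries, 1 for each of SW1736 wt, SW1736-PTX, 8505C wt and 8505C-PTX, grouped by the sample titles. Per the labels and the study's methods, mRNA libraries were read as single-end 75 base reads, base calls were converted with bcl2fastq 2.20, adapters were masked with Cutadapt, low-quality bases were removed with ERNE, reads were aligned with STAR to hg38, and gene loci were quantified with StringTie. The annotation, the strand setting and the versions of STAR, ERNE and StringTie are not given in the sources used here. The deposited tables give the coverage, the mean read depth per base, which the authors did not scale for depth. FPKM, as deposited, was scaled for length and depth. TPM, as deposited, was scaled to an equal total per library. No read counts were among the files used, so no count model was run.

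FPKM of rows with the same gene name were summed, which bears on names that occur at more than 1 place. The FPKM minimum of 0.5 and the log2 limit of 1.5 are those of the study's methods, while the pseudocount of 0.1 and the need for only 1 library of a pair to pass are choices made here. Estimated reads are FPKM times the length of the GENCODE release 44 canonical transcript times depth, and 95% exact (Clopper-Pearson) intervals of ratios cover counting error only. A value of 3 reads was taken as the floor of detection. Motifs were searched in RefSeq promoter windows, and shared 75-base words in GENCODE transcripts. The 39 genes are named by a rule that uses no measured value, but they and the other lists were chosen with earlier results of these data known. Values are given for listed genes called in at least 1 line and the highest and lowest of each role, for receptors, kinases and STATs, for interferons above 0.5 FPKM, and for other pathway genes called in the same direction in both lines, at most 10. A few genes that this rule covers are left out of the text. Alternatives changed the pseudocount, the FPKM minimum, the unit, the centring, the handling of repeated names, the limit and, chosen after seeing the data for single genes, shared calls and sums, the wt library or the genes summed. Python 3.11.15, NumPy 2.4.6, pandas 2.3.3, SciPy 1.17.1 and matplotlib 3.10.9 were used.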

Additional observations from a re-analysis of the deposited data

Results flagged for a closer look

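2 genes passed the limit in opposite directions in the 2 lines. They were 1 of the 35 listed genes and 1 of the 44 further interferon-stimulated genes compared in both lines. Of all genes compared in both lines, 144 of 13304 did so. OAS2 changed by -2.97 in SW1736-PTX against SW1736 wt and by 2.63 in 8505C-PTX against 8505C wt. TNFSF10, which encodes the death ligand TRAIL, changed by -3.29 and by 5.17, at 4.78 FPKM in SW1736 wt against 0.398 in its PTX cells, and at 0.218 in 8505C wt against 11.3 in its PTX cells. With 1 library per condition the difference between the lines was not tested. Against 8505C wt, SW1736-PTX was at 2.16 for OAS2 and 0.65 for TNFSF10, and for TNFSF10 neither library of that pair reached 0.5 FPKM. With a pseudocount of 1, OAS2 in 8505C was at 0.83, within the limit, so that it no longer passed in opposite directions.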

How the results depend on the processing

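The count of listed genes up-regulated in SW1736 fell from 15 to 8 with a pseudocount of 1, and the 3 down-regulated genes fell to 0 against 8505C wt, where OAS2 and OASL turned to 2.16 and 1.88. The value of OASL is set by the pseudocount, since the gene was listed at 0 in 8505C wt and neither library of that pair reached 0.5 FPKM. In 8505C the count of 17 fell to 11 with a pseudocount of 1 and to 11 with a limit of 2. Of the 10 genes up-regulated in both lines, 5 were left with a pseudocount of 1 and 5 with a limit of 2. The former setting took IFIH1, MX1, IFI27 and XAF1 below the limit in SW1736 and DDX60 below it in 8505C. Between the wt libraries, the 8 calls became 3 where both libraries had to exceed 0.5 FPKM and 17 with a limit of 1. Between the PTX libraries, the 4 calls became 2 with a pseudocount of 1, 9 with a limit of 1 and 2 with a limit of 2. The ratio of summed TPM in SW1736, 5.63, became 1.45 without the IFITM genes and 2.13 against 8505C wt, and in 8505C, 4.30 became 1.89 without the IFITM genes. The cause of these changes was not tested. Another 76 values of these list results stayed within a factor of 1.5 of their count, summed ratio or median fold change. Among them, the counts of up-regulated genes fell from 15 to 10 in SW1736 and from 17 to 13 in 8505C. Both libraries of a pair had to exceed 0.5 FPKM for those lower counts. With a limit of 1 the counts rose to 22 and 20. With 1 library per condition, no library was left out, and the 2 pairs of wt and PTX cells were not fitted together with the line as a replicate block. Depth left the low wt values of XAF1, GBP2 and IFI27 resting on a few estimated reads.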

Other observations

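The chemokine genes CXCL9 and CXCL10, which are typical targets of type II interferon, were listed at 0 in all 4 libraries, and CXCL11 was at 0.0210 FPKM in SW1736-PTX and listed at 0 in the others. GBP4 and GBP5, guanylate-binding proteins, were at most 0.0588 and 0.0300 FPKM. These genes were part of the list of 50 further interferon-stimulated genes and were singled out after their values were seen. Of that list, 45 genes exceeded 0.5 FPKM in 1 or both SW1736 libraries. Among them were GBP3, at 12.8, 15.3, 6.65 and 5.09 FPKM, and PSMB9, at 21.0, 77.9, 19.5 and 39.3. Whether targets of type II interferon were silent as a class was not tested.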
